A study of Mus musculus with 24 samples.

Results

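The genes described here code for 8 small leucine-rich proteoglycans: asporin (Aspn), osteoglycin (Ogn), decorin (Dcn), lumican (Lum), biglycan (Bgn), osteomodulin (Omd), fibromodulin (Fmod) and prolargin (Prelp). They were followed among 18193 genes with an annotated probe set on Affymetrix Mouse430_2 arrays, where 19 probe sets stand for them. Each gene is represented by its brightest probe set, by the mean of all 24 arrays. The family was chosen by its levels on the knockout arrays numbered 1 and 2 relative to control, where Aspn and Ogn had stood out as low in earlier results of these data. Earlier results of all knockout arrays together relative to control also entered the choice. Differences of the 8 genes from control in these 2 comparisons are therefore given as a description without a test.

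RNA came from the mandible and maxilla of C57B6 mouse embryos at embryonic day 12.5, each divided into a distal and a proximal end. Knockout (KO) embryos came from a cross of Wnt1-Cre;Alk5 fl/+ with Alk5 fl/fl mice and were recognised by a cleft palate and a defect of the skull vault; Alk5 is the type I TGF-beta receptor encoded by Tgfbr1. Control embryos were littermates, whose exact genotype the labels do not give. Wnt1-Cre acts in the neural crest and its descendants, which form most of the facial mesenchyme, while blood, endothelium, muscle cells and surface epithelium arise elsewhere and keep the receptor. Each of the 4 parts has 4 KO arrays and 2 control arrays, and the labels do not say which samples share an embryo or pool, so that p-values measure only the spread between these samples.

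Small leucine-rich proteoglycans are secreted proteins with a curved core of leucine-rich repeats that many members use to bind collagen fibrils. Most carry chondroitin, dermatan or keratan sulfate chains, and mice that lack single members have fibrils of irregular width in tendon, skin or cornea. Decorin, biglycan, asporin and fibromodulin also bind TGF-beta, and TGF-beta signalling in turn regulates several of these genes in connective tissue cells. In the embryonic face they are made chiefly by mesenchymal cells of loose connective tissue, perichondrium, tendon and young bone.

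The KO arrays fall into 2 sets that stand apart: those numbered 1 and 2 (KO 1-2) and those numbered 3 and 4 (KO 3-4), with 8 arrays each, beside 8 control arrays. The control probe sets of Gapdh and beta-actin gave a 3′ over 5′ excess, a sign of RNA degradation, of 1.13 ± 0.28 on KO 1-2 arrays, 0.08 ± 0.06 on KO 3-4 arrays and 0.18 ± 0.04 on control arrays (log2, SD, n = 8 each). The hybridisation controls ranged from 11.30 to 12.19, from 9.03 to 9.51 and from 10.09 to 11.07 (log2) in that order of sets, with no overlap. No set holds both genotypes, so that an effect of array set and one of genotype cannot be told apart. By Xist and the Y-linked Kdm5d all 8 control arrays were male, while KO number 3 was male and KO number 4 female in all 4 parts. KO number 1 was male in 3 of 4 parts and KO number 2 in 1 of 4, so that these numbers do not each hold embryos of 1 sex across the parts, and the SEs over the means of KO numbers 1 and 2 rest on them. The brightest Tgfbr1 probe set averaged 12.34 on KO 1-2, 12.44 on KO 3-4 and 12.31 on control arrays (log2), so that it does not check the genotype labels. Another Tgfbr1 probe set averaged 5.95, 6.75 and 7.57 in that order of sets, lower on both KO sets than on control. The remaining one averaged 5.10, 7.63 and 7.03, lower than control on KO 1-2 arrays only. The facial mesenchyme markers (Prrx1, Twist1, Pdgfra, Msx1, Tfap2a and Vim) were all above the filter level on every array. So were the listed epithelial, endothelial and erythroid markers with a probe set, and this does not check the labels of jaw or end.

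Levels are deposited RMA values on a log2 scale. Brightness depends on the probes, so levels are compared between arrays for 1 gene and never between genes. Tests were run for the 13837 genes that exceeded 6.07 (the 40th percentile of the table without control features; the filter level) on at least 2 arrays. All 8 members passed. Ogn, Dcn, Lum, Bgn and Fmod lay above that level on 24 of 24 arrays. Aspn did so on 0 of 8 KO 1-2, 8 of 8 KO 3-4 and 8 of 8 control arrays, Omd on 0, 7 and 8, and Prelp on 0, 1 and 7. Prelp thus entered the test almost only through the control arrays, and the size of its differences is poorly measured.

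Of the 8 genes 6 were lowest on the KO 1-2 arrays and close together on the other 2 sets, as the plot of levels by array set shows. Asporin, which binds collagen and TGF-beta, had the widest gap. Aspn lay between 3.68 and 4.34 (median 3.96) on KO 1-2 arrays, between 8.91 and 10.07 (median 9.08) on KO 3-4 arrays, and between 9.10 and 10.73 (median 10.24) on control arrays. The KO 1-2 arrays did not overlap with either of the other sets, which overlapped with each other. KO 1-2 minus control was -6.13 ± 0.11 (log2, SE over 2 against 2 means of the 4 parts). Because every KO 1-2 array lay below the filter level, the control mean of 10.09 is better read as at least 16.1-fold above that level.

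**Figure D1:**
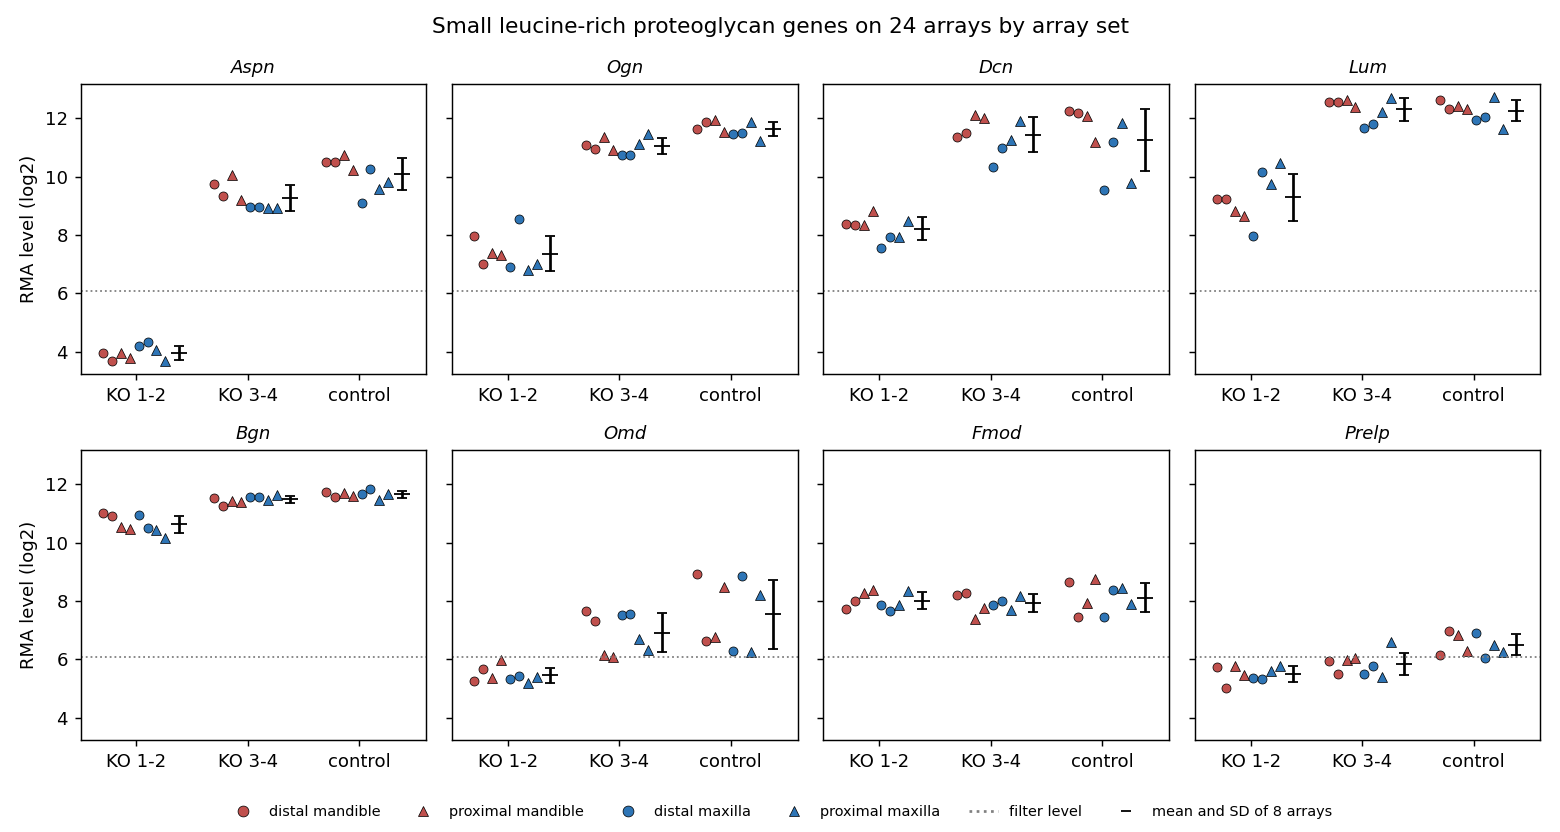
RMA levels (log2, vertical axis) of the 8 genes on 24 arrays, by array set; each symbol is 1 array, coloured by jaw and shaped by end, with the mean and SD of 8 arrays beside it and the filter level dotted. Aspn, Ogn, Dcn, Lum, Bgn and Omd sit lower on all KO 1-2 arrays than on any KO 3-4 array, while Fmod is spread alike over the 3 sets.

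Osteoglycin, a keratan sulfate proteoglycan first isolated from bone, followed. Ogn had 6.79 to 8.56 (median 7.16) on KO 1-2 arrays, 10.74 to 11.47 (median 11.02) on KO 3-4 arrays and 11.22 to 11.94 (median 11.58) on control arrays. Its highest KO 1-2 array, the distal maxilla numbered 2, was still more than 2 log2 units below the lowest array of the other sets. Decorin, which coats collagen fibrils and sequesters TGF-beta, had 7.55 to 8.81 (median 8.33) on KO 1-2, 10.31 to 12.13 (median 11.42) on KO 3-4 and 9.56 to 12.25 (median 11.52) on control arrays. Lumican, the corneal keratan sulfate proteoglycan that limits fibril thickness, had 7.98 to 10.47 (median 9.23) on KO 1-2, 11.65 to 12.68 (median 12.47) on KO 3-4 and 11.65 to 12.73 (median 12.33) on control arrays. For Dcn and Lum the KO 3-4 and control ranges nearly coincided.

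Biglycan, the closest relative of decorin and rich in bone, had 10.17 to 11.02 (median 10.52) on KO 1-2, 11.26 to 11.63 (median 11.49) on KO 3-4 and 11.45 to 11.83 (median 11.67) on control arrays. Its gap was the smallest of the 6 genes, on arrays whose spread within a set was also small. Omd, coding for the bone keratan sulfate proteoglycan also called osteoadherin, had 5.17 to 5.97 (median 5.37) on KO 1-2, 6.07 to 7.64 (median 7.003) on KO 3-4 and 6.24 to 8.91 (median 7.48) on control arrays. Prelp, whose product anchors basement membranes to collagen, had 5.01 to 5.77 (median 5.53) on KO 1-2, 5.39 to 6.58 (median 5.87) on KO 3-4 and 6.05 to 6.98 (median 6.39) on control arrays. Fibromodulin, which binds collagen I in tendon and cartilage, was the exception: Fmod had 7.64 to 8.38 (median 7.94) on KO 1-2, 7.37 to 8.28 (median 7.94) on KO 3-4 and 7.44 to 8.74 (median 8.15) on control arrays, so that all 3 sets overlapped.

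As differences, KO 1-2 minus control was -4.26 ± 0.11 for Ogn, -3.04 ± 0.17 for Dcn, -2.97 ± 0.26 for Lum and -1.03 ± 0.10 for Bgn (log2, SE). It was -2.09 ± 0.35 for Omd, -0.99 ± 0.12 for Prelp and -0.10 ± 0.08 for Fmod. With KO 1-2 at the filter level, control exceeded it by at least 2.77-fold for Omd and 1.34-fold for Prelp. All KO 1-2 arrays lay below all control arrays for 7 of the 8 genes, against 17.9% of all genes tested. All KO 1-2 arrays lay below all KO 3-4 arrays for 6 of the 8, against 19.5%. The rule used these arrays, so nothing is read from those counts. The median difference of the 8 genes was -2.53, beside -0.06 over all genes. With the 3′ excess as a term in the fit the median was -1.73, and 0 of 13837 genes passed the test of KO 1-2 against control, where 7279 (52.6%) passed without it (limma). That fit had little power to pass any gene. It sets 2 against 2 means, and the 3′ excess itself separates these sets, so nothing is read from its count.

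The other probe sets of the same genes bear on the sizes. The second Aspn probe set gave -5.78 for KO 1-2 minus control and -0.67 for KO 3-4 minus control. The second Ogn probe set gave -5.32 and -0.26, and the 2 other Bgn probe sets between -0.92 and -1.27 and between -0.21 and -0.18 (log2 differences of 8-array means). The second Dcn probe set averaged 5.30 over all arrays, below the filter level, and gave -0.42 and -0.02. The second Prelp probe set, which averaged 5.43 and so also lay below it, gave -0.28 and -0.25. The 5 other Fmod probe sets gave between -0.21 and -0.02 for KO 1-2 minus control and between -0.20 and -0.04 for KO 3-4 minus control. The used Fmod probe set and 4 of these 5 carry the suffix by which Affymetrix marks probes that also match other transcripts.

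Other measures moved with the KO 1-2 set. The mean level of 6 connective tissue and tendon markers (Scx, Tnmd, Mkx, Thbs2, Egr1 and Tnc) ranged from 6.96 to 7.40 on KO 1-2 arrays, from 8.61 to 9.17 on KO 3-4 arrays and from 8.69 to 9.52 on control arrays (log2). For 5 erythroid markers it ranged from 12.44 to 13.21, from 10.66 to 11.17 and from 11.18 to 11.45 in the same order of sets, and for 6 endothelial markers from 7.54 to 8.74, from 8.89 to 9.52 and from 8.98 to 9.38. The facial mesenchyme markers ranged from 11.60 to 12.24, from 11.90 to 12.38 and from 11.15 to 12.42, with overlap of all sets. For 6 cartilage markers (Sox9, Sox5, Sox6, Acan, Col2a1 and Cnmd) the mean ranged from 7.45 to 8.45, from 8.62 to 9.78 and from 9.54 to 11.04, and for 4 osteoblast markers from 6.799 to 7.55, from 7.41 to 9.20 and from 7.21 to 9.67. On all 8 KO 1-2 arrays Cnmd of the cartilage list and Ibsp of the osteoblast list were below the filter level. What part the marker lists or the 3′ excess have in the low proteoglycan levels was not tested. In bulk tissue, fewer cells of a type and less RNA per cell cannot be told apart.

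Over both KO sets together, KO minus control was -3.48 ± 1.90 for Aspn, -2.42 ± 1.32 for Ogn, -1.44 ± 1.16 for Dcn and -1.46 ± 1.10 for Lum (log2, SE over 4 against 2 means). The values were -0.60 ± 0.32 for Bgn, -1.36 ± 0.59 for Omd, -0.15 ± 0.12 for Fmod and -0.82 ± 0.18 for Prelp. All 8 were negative, with a median of -1.40 beside -0.05 over all genes. The SEs of the first 4 are wide because the 2 KO sets lie far apart. In this comparison 0% of all genes passed the test (limma; 965 genes at an unadjusted p under 0.05).

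The KO 3-4 arrays alone were not used to choose the family, but the comparison over both KO sets, which includes them, was. Their test is therefore not wholly separate from the choice. They have a 3′ excess close to that of control and are set against the same 8 control arrays. Here the 8 genes were near control. Aspn was lower by the largest amount, with 9.26 ± 0.44 on KO 3-4 and 10.09 ± 0.55 on control arrays (log2, SD, n = 8 each), a difference of -0.82 ± 0.14 (SE, adjusted p = 0.0771). Ogn averaged 11.05 ± 0.27 on KO 3-4 and 11.62 ± 0.25 on control arrays (SD, n = 8 each), a difference of -0.58 ± 0.09 (adjusted p = 0.0625). Prelp averaged 5.84 ± 0.39 on KO 3-4 and 6.49 ± 0.36 on control arrays (SD, n = 8 each), a difference of -0.66 ± 0.12 (adjusted p = 0.0836).

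The other differences between KO 3-4 and control were -0.63 ± 0.35 for Omd (adjusted p = 0.317), -0.18 ± 0.05 for Bgn (0.138) and -0.20 ± 0.10 for Fmod (0.298). Dcn gave 0.17 ± 0.17 (adjusted p = 0.560) and Lum 0.05 ± 0.13 (adjusted p = 0.824). None of the 8 passed the test, where 1.56% of all genes did. No gene of the family had all KO 3-4 arrays below all control arrays, against 4.7% of all genes. Of the 8 differences 6 were negative, with a median of -0.39 beside -0.03 over all genes, as the plot of differences from control shows. For the 6 cartilage markers, KO 3-4 minus control was negative in all 6, with a median of -1.04. Of these Sox9 (-1.15 ± 0.08, adjusted p = 0.0345) and Sox6 (-0.82 ± 0.08, 0.0462), both transcription factors of cartilage, passed, where 1.29% of all genes fell. Both calls were lost without KO number 3 (adjusted p = 0.375 each), without KO number 4 (0.356 each) and with the 3′ excess in the fit (0.805 each), and that of Sox6 without control number 1 (0.0566). The fit with the 3′ excess had little power to pass any gene, as said for KO 1-2. What part the cartilage markers have in the proteoglycan differences was not tested.

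**Figure D2:**
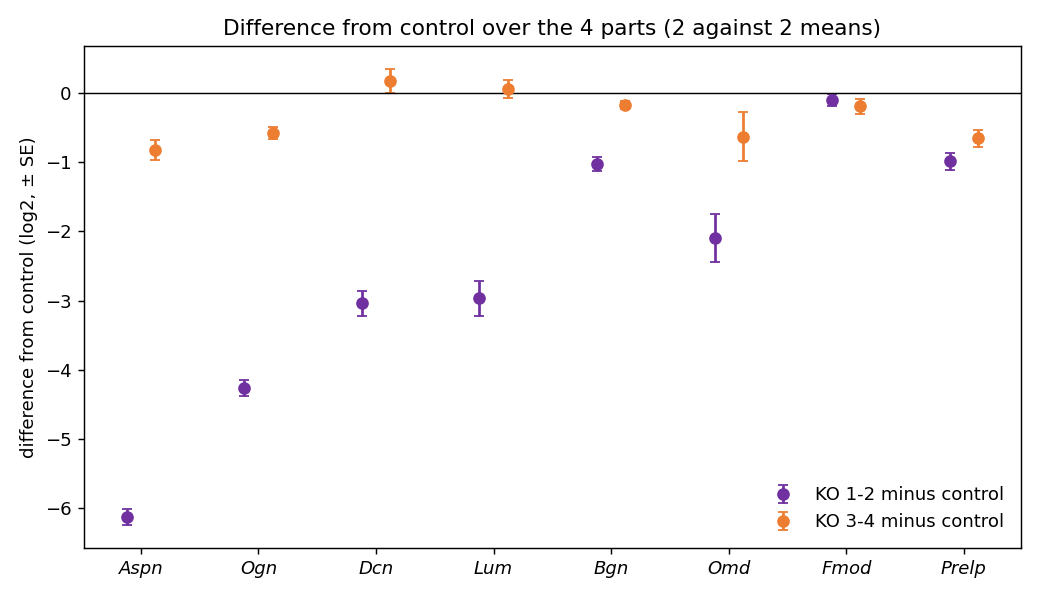
Difference from control over the 4 parts (log2, vertical axis; points, with SE bars from 2 against 2 means) for KO 1-2 and KO 3-4 arrays, by gene. KO 1-2 differences run from -6.13 for Aspn to -0.10 for Fmod, whereas those of KO 3-4 lie between -0.82 and 0.17.

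The calls for Aspn and Ogn lie close to the threshold and turn on the fit. Prelp does too, but it exceeded the filter level on only 1 of 8 KO 3-4 arrays and 7 of 8 control arrays. It entered the test almost only through control, so nothing is read from the p-values of Prelp. With a mean-variance trend Aspn had an adjusted p of 0.0482 and Ogn of 0.0364, and with all 3 sets in 1 fit 0.0363 and 0.0420. With each array as a replicate, in a fit chosen after the data were seen that treats the 4 parts of a number as independent, Aspn had 0.00291 and Prelp 0.0280. Without control number 2, Ogn was -0.68 (adjusted p = 0.0205) and Prelp -0.75 (0.0408). Without control number 1, Omd was -1.13 (adjusted p = 0.0473). With the numbers of the control distal mandible exchanged, an alternative chosen after the data were seen, the adjusted p-values were 0.139 for Aspn, 0.160 for Ogn and 0.264 for Prelp, and 0 of all genes passed instead of 216.

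Part by part, Aspn was lower on both KO 3-4 arrays than on both control arrays in all 4 parts. In the distal mandible it had 9.76 and 9.32 on KO 3-4 arrays against 10.49 and 10.50 on control arrays, and in the proximal mandible 10.07 and 9.20 against 10.73 and 10.23. In the distal maxilla the levels were 8.96 and 8.96 on KO 3-4 arrays against 9.10 and 10.25 on control arrays, and in the proximal maxilla 8.91 and 8.92 against 9.59 and 9.80. The 2 KO 3-4 arrays of each maxillary end were almost equal. The differences of -0.95, -0.85, -0.71 and -0.78 (SE 0.32 each), in that order of parts, had adjusted p-values of 0.201, 0.271, 0.402 and 0.309. A gene that was lower on both arrays in each of the 4 parts was not rare, since 7.51% of all genes were.

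For Ogn the mean of the KO 3-4 arrays was below that of control in each of the 4 parts. In the distal mandible it had 11.07 and 10.96 on KO 3-4 arrays against 11.62 and 11.86 on control arrays, a difference of -0.72 ± 0.41 (adjusted p = 0.497). In the distal maxilla it had 10.74 and 10.74 against 11.47 and 11.48, a difference of -0.74 ± 0.41 (adjusted p = 0.532), and in the proximal mandible 11.37 and 10.91 against 11.94 and 11.54, a difference of -0.60 ± 0.41 (adjusted p = 0.607). In the proximal maxilla, with 11.12 and 11.47 on KO 3-4 arrays against 11.86 and 11.22 on control arrays, the arrays overlapped (-0.25 ± 0.41, adjusted p = 0.860). Without control number 1 the log2 difference of Ogn there was 0.072. In each part 0 of the 8 genes passed the test, where between 0.795% and 1.49% of all genes did (1.49% in the distal mandible, 0.795% in the proximal mandible, 1.06% in the distal maxilla and 1.29% in the proximal maxilla).

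Aspn, Omd and Ogn lie side by side. In the RefSeq table (GRCm38.p6, used for gene order, the build of the deposited files not being given in the sources used here) the order on chromosome 13 is Ecm2, Aspn, Omd and Ogn, all within the span of Cenpp, which codes for a centromere protein. Ecm2, an extracellular matrix relative of the family, lay near 4.20 (log2) on all 3 sets, below the filter level. Cenpp differed from control by -0.19 on KO 1-2 arrays and 0.11 on KO 3-4 arrays. On the other side, Nol8 gave -0.16 and -0.15 and Iars, an aminoacyl-tRNA synthetase gene, -0.10 and -0.18. The pseudogene Tes3-ps between Cenpp and Ecm2 gave 1.65 and 0.50. Low KO 1-2 levels were seen for Aspn, Omd and Ogn and not for their tested neighbours, as the plot of neighbouring genes shows. The family was chosen by these arrays, so nothing is read from that contrast.

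The 250 bases upstream of the RefSeq start of these 3 neighbours (RefSeq, GRCm38.p6) are shown because the genes were low together on the KO 1-2 arrays. They run 5′ to 3′ toward the gene, and capitals mark TATAAA on either strand.
Aspn, chr13:49544193-49544442, plus strand: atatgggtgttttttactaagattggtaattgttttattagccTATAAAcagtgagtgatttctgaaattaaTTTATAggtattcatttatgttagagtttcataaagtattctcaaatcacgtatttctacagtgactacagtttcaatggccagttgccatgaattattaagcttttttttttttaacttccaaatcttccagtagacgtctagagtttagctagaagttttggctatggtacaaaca
Omd, chr13:49582212-49582461, plus strand: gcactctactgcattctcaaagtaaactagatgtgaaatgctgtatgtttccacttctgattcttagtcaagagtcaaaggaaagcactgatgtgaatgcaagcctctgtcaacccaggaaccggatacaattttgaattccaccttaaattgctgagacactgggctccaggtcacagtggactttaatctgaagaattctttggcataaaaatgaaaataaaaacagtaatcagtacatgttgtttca
Ogn, chr13:49607765-49608014, plus strand: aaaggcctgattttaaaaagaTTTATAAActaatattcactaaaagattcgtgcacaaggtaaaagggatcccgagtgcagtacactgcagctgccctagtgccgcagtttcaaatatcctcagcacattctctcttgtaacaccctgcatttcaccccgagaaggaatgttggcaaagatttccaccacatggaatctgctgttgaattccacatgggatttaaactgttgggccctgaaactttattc
Of 5 motifs searched on both strands, the first was the TATA motif. Positions give the leftmost base, with -1 just before the gene's first base. TATAAA stood in the Aspn window at -207 and -178 and in the Ogn window at -229 and -227, where the 2 matches overlap on opposite strands, and 12.4% of 32851 promoter windows hold one. The E-box, spelled CANNTG, stood in the Aspn window at -97 and in the Ogn window at -162, -63 and -39, and 66.2% of all windows hold one. The CCAAT box stood in the Aspn window at -229, and 33.8% of all windows hold one. The Smad box, spelled CAGAC and present in 42.2% of all windows, was in none of the 3 windows. Its palindromic form GTCTAGAC, present in 0.167% of all windows, was in none of them either. The Omd window held none of the 5 motifs. The G and C share was 30% for Aspn, 38.4% for Omd and 42% for Ogn, below the median of 52.4% over all windows. Of the 8 genes 6 had an entry in the promoter table; Dcn and Lum had none there.

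**Figure D3:**
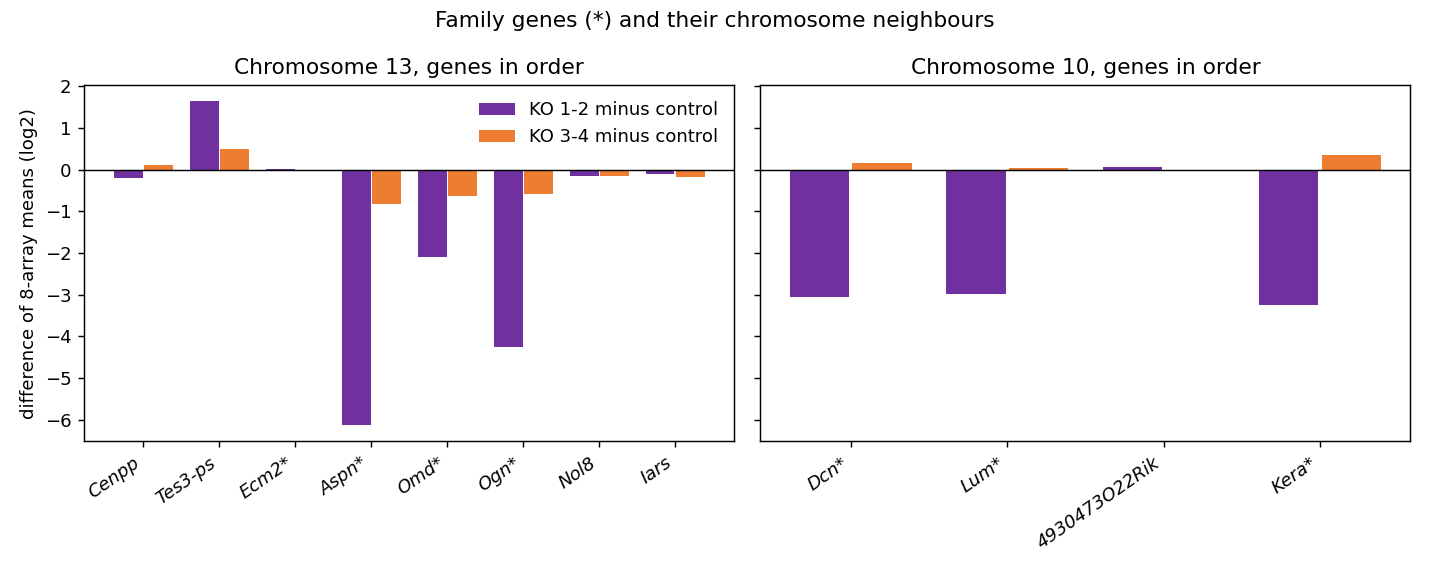
Difference of 8-array means from control (log2, vertical axis) for KO 1-2 and KO 3-4 arrays in genes of chromosomes 13 and 10, in chromosome order, with family genes starred; genes with no probe set are left out. The long KO 1-2 bars belong to Aspn, Omd and Ogn on chromosome 13 and to Dcn, Lum and Kera on chromosome 10.

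Dcn and Lum are neighbours on chromosome 10, next to Kera, which codes for keratocan, a keratan sulfate proteoglycan of the cornea and tendon. Kera followed the pattern of Dcn and Lum, with 4.49 to 6.34 on KO 1-2, 7.60 to 10.11 on KO 3-4 and 6.38 to 10.42 on control arrays (log2). It was lower on KO 1-2 arrays by -3.25 ± 0.21 (SE, adjusted p = 0.00159), while KO 3-4 minus control was 0.34 ± 0.24 (adjusted p = 0.405). Unlike Dcn and Lum, Kera lay at or below the filter level on 7 of 8 KO 1-2 arrays, so that the size of its KO 1-2 difference is poorly measured. Bgn lies on chromosome X between Haus7 and Atp2b3; Haus7 differed by 0.11 on KO 1-2 and 0.09 on KO 3-4 arrays from control. Within the KO 3-4 set, Bgn averaged 11.49 over the 4 arrays of number 3, which were male, and 11.46 over those of number 4, which were female. Prelp and Fmod lie on chromosome 1 near Optc, the opticin gene, which stayed near 5.2 on all 3 sets, below the filter level.

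Of 10 further genes of the family, 7 had a probe set and 4 could be tested: Kera, Epyc, Chad and Podn. Epyc and Chad were below the filter level on all 8 KO 1-2 arrays, and Chad on 7 of 8 KO 3-4 arrays too, so that they entered the test through other arrays and their differences there are bounds. Epyc, coding for the cartilage proteoglycan epiphycan, averaged 4.86 on KO 1-2 and 7.40 on control arrays, at least 2.50-fold lower (adjusted p = 0.00514). Chad, coding for chondroadherin, averaged 5.27 on KO 1-2 and 6.29 on control arrays, at least 1.16-fold lower (adjusted p = 0.0313). Podn (podocan) did not pass. Of all genes 31.7% were lower, and with genes that entered this way the count of 3 of 4 is no result about the family. On KO 3-4 arrays 0 of the 4 passed, with -0.72 ± 0.38 for Epyc (adjusted p = 0.300) and -0.98 ± 0.28 for Chad (0.136). Without control number 2, which leaves a lone control, these were -1.25 and -1.37. With the numbers of the control distal mandible exchanged, an alternative chosen after the data were seen, the adjusted p-values were 0.746 and 0.188.

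The jaws were compared next. For Aspn, the mandible of control embryos had 10.49, 10.50, 10.73 and 10.23 and the maxilla 9.10, 10.25, 9.59 and 9.80 (log2). Of the 4 mandibular arrays 3 lay above all 4 maxillary ones. Mandible minus maxilla was 0.80 ± 0.23 in control (SE, adjusted p = 0.143). On KO 3-4 arrays, with 9.76, 9.32, 10.07 and 9.20 in the mandible and 8.96, 8.96, 8.91 and 8.92 in the maxilla, all 4 mandibular arrays lay above all 4 maxillary ones. That difference was 0.65 ± 0.23 (adjusted p = 0.283). Such a complete separation of the jaws on KO 3-4 arrays held for 1 of the 8 genes and for 2.93% of all genes. On control arrays it held for 0 of the 8 and for 3.43% of all genes.

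Taken over both KO sets, Aspn differed by 0.22 ± 0.16 between the jaws (adjusted p = 0.459), and by -0.21 on KO 1-2 arrays alone, which were all below the filter level. Dcn also tended to lie higher in the mandible of controls, with 12.25, 12.17, 12.09 and 11.19 in the mandible against 9.56, 11.18, 11.84 and 9.77 in the maxilla. Its difference was 1.34 ± 0.40 in control (adjusted p = 0.169) and 0.56 ± 0.28 in KO (adjusted p = 0.266), with 0.62 on KO 3-4 and 0.50 on KO 1-2 arrays. The 6 skeletal muscle markers were positive in the same comparison in both genotypes, with medians of 3.18 in KO (4 of 6 passed) and 2.45 in control (0 of 6), and their mean on control arrays ranged from 9.62 to 11.59 in the mandible and from 5.82 to 11.16 in the maxilla. The part of muscle in the Dcn levels was not tested. Without control number 2, a fit that leaves a lone control array in each part, the control differences were 1.27 for Aspn and 1.47 for Dcn. These rest on number 1 only. On the number 2 arrays Aspn had 10.50 and 10.23 in the mandible against 10.25 and 9.80 in the maxilla. Dcn had 12.17 and 11.19 against 11.18 and 9.77 there. In the distal maxilla, control number 1 was more than 1 log2 unit below number 2 for both genes.

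In the jaw comparisons 0 of the 8 genes passed, where 7.71% of all genes did in KO and 0.687% in control. Of the 8 differences 7 were positive in each genotype, with medians of 0.05 in KO and 0.27 in control, beside -0.02 and -0.00274 over all genes. The difference of the jaw effects, KO minus control, was -0.58 ± 0.28 for Aspn and -0.78 ± 0.49 for Dcn (adjusted p = 0.995 each). It passed for 0% of all genes (limma; 570 at an unadjusted p under 0.05).

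Between the ends of a jaw, 0 of the 8 genes passed in any of the 4 comparisons. Of all genes 1.09% passed in the KO mandible, 0% in the control mandible (limma; 36 at an unadjusted p under 0.05), 0.065% in the KO maxilla and 0% in the control maxilla (401). Distal minus proximal for Lum in the KO maxilla was -0.89 ± 0.35 (adjusted p = 0.676), with 11.65 and 11.80 on distal and 12.23 and 12.68 on proximal KO 3-4 arrays, and 7.98 and 10.15 on distal and 9.75 and 10.47 on proximal KO 1-2 arrays. Without KO number 2, which leaves a lone KO 1-2 array at each end, it was -1.25. Among KO 1-2 arrays that value rests on number 1, with 7.98 distally and 9.75 proximally. Number 2 had 10.15 and 10.47. Dcn in the KO maxilla gave -0.71 ± 0.40 (adjusted p = 0.923). It had 10.31 and 10.97 on distal and 11.27 and 11.92 on proximal KO 3-4 arrays. On KO 1-2 arrays it had 7.55 and 7.91 distally and 7.92 and 8.48 proximally. The difference of the end effects, KO minus control, passed for 0 of the 8 genes and for 0.0145% of all genes in the mandible and 0% in the maxilla (limma; 365 at an unadjusted p under 0.05). Bgn gave 0.23 ± 0.10 in the KO mandible (adjusted p = 0.423) and 0.23 ± 0.10 in the KO maxilla (adjusted p = 0.802).

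Omd separated the ends on the KO 3-4 arrays. Its distal levels there were 7.64 and 7.32 in the mandible and 7.51 and 7.56 in the maxilla, and its proximal levels 6.15 and 6.07 in the mandible and 6.69 and 6.33 in the maxilla (log2). All 4 distal arrays lay above all 4 proximal ones, which 3.34% of all genes showed. Distal minus proximal was 1.37 ± 0.82 in the KO 3-4 mandible and 1.03 ± 0.82 in the KO 3-4 maxilla (adjusted p = 1.00 each). Over both KO sets the values were 0.59 ± 0.58 (adjusted p = 0.782) and 0.56 ± 0.58 (0.941), since KO 1-2 levels were all below the filter level.

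On control arrays the same gene split within each part instead. Omd had 8.91 and 6.62 in the distal mandible (numbers 1 and 2), 6.76 and 8.49 in the proximal mandible, 6.27 and 8.85 in the distal maxilla and 6.24 and 8.20 in the proximal maxilla. The 2 control arrays lay far apart in every part, which widens the SE of every comparison of Omd. In the mandible the numbers run opposite ways at the ends, number 1 being high distally and number 2 proximally. Whether numbers or ends are exchanged among these control arrays was not tested, so that distal and proximal control values stand only as labelled. Fmod had 8.64 and 7.44, 7.92 and 8.74, 7.46 and 8.39, and 8.43 and 7.90 in the same order of parts. Prelp had 6.15 and 6.98, 6.82 and 6.29, 6.91 and 6.05, and 6.49 and 6.26. In both mandibular ends and in the distal maxilla, the array with the higher Omd level also had the higher Fmod and the lower Prelp level; in the proximal maxilla Omd and Fmod ran opposite ways.

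Epyc ran opposite to Omd on control arrays, with 5.27 and 9.25 in the distal mandible, 9.06 and 4.73 in the proximal mandible, 8.88 and 6.62 in the distal maxilla and 8.50 and 6.85 in the proximal maxilla (log2). The mean of 4 osteoblast markers with a probe set ran with Omd, at 9.67 and 7.99, 7.88 and 9.52, 7.21 and 8.91, and 7.53 and 8.71 in the same order. On KO 3-4 arrays that mean was 9.20 and 8.65 in the distal mandible and 8.42 and 8.29 in the distal maxilla, and from 7.41 to 7.50 on the 4 proximal arrays. After subtraction of the mean of each array set, Omd correlated with the osteoblast mean at r = 0.90, with Epyc at -0.83, with Fmod at 0.61 and with Prelp at -0.65. These correlations run over 24 arrays that share labelling and, by part and number, perhaps tissue, and are given as a description.

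**Figure D4:**
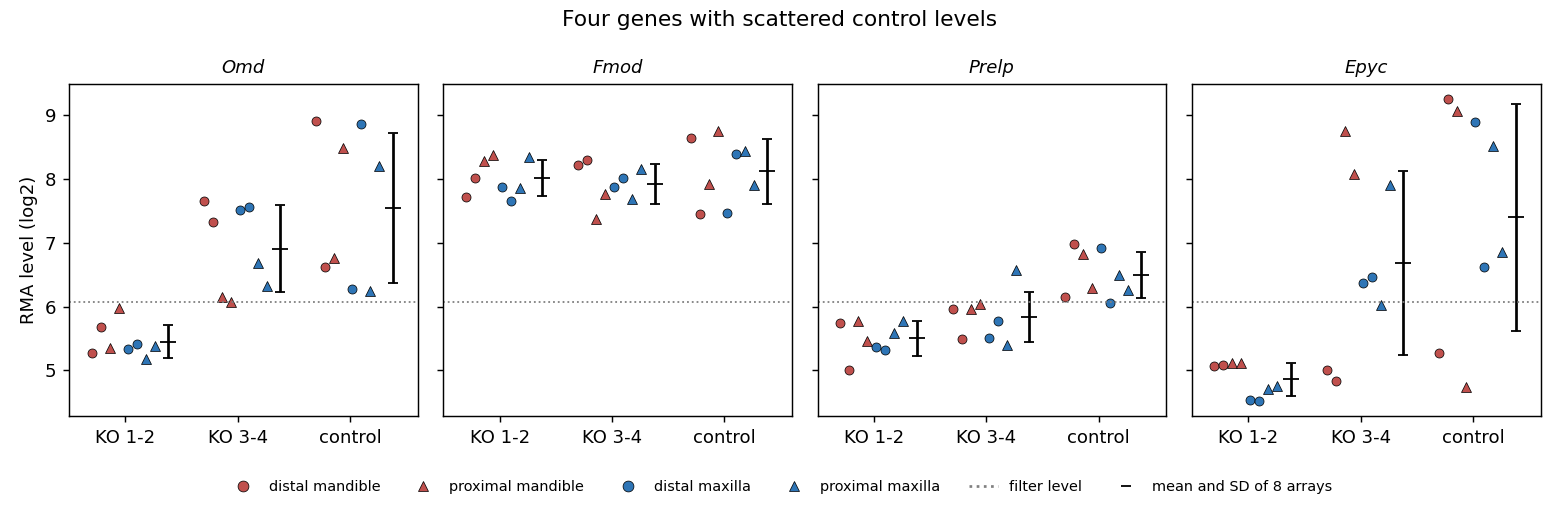
RMA levels (log2, vertical axis) of Omd, Fmod, Prelp and Epyc by array set; symbols are single arrays, with the mean and SD of 8 arrays beside them and the filter level dotted. The control arrays of Omd (6.24 to 8.91) and Epyc (4.73 to 9.25) are widely scattered within parts, whereas on KO 3-4 arrays every distal Omd level lies above every proximal one.

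Within the array sets the family did not move as a block. Besides Omd with Fmod, the pairs with the highest correlation were Aspn with Dcn (r = 0.52), Dcn with Lum (0.47) and Ogn with Lum (0.43), and the lowest besides Omd with Prelp was Lum with Bgn (-0.54), again over 24 arrays with set means removed. Dcn correlated with the mean of 6 skeletal muscle markers at 0.72 and of the connective tissue and tendon markers at 0.67. Lum and Ogn correlated with the endothelial mean at 0.72 and 0.68. The genes most like each member by the same measure were Vwa2 (0.94), Mapkapk3 (0.92) and Lgr6 (0.92) for Omd, and Gjb2 (0.92), Hoxd1 (0.91) and Hoxd8 (0.89) for Dcn. They were Plekhm1 (0.87), Hdac5 and St6galnac6 (0.82 each) for Bgn, Jcad (0.83), Spryd7 (0.83) and Mcts1 (0.82) for Lum, and Arhgap31 (0.83), Ampd3 (0.79) and Hhex (0.74) for Ogn. For Aspn they were Agfg2 (0.82), Cdon (0.79) and Aass (0.77), for Fmod Smpd3 (0.79), Sfxn1 and Sapcd1 (0.76 each), and for Prelp Tcf15 (0.78), Inka1 and Dact3 (0.75 each).

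**Figure D5:**
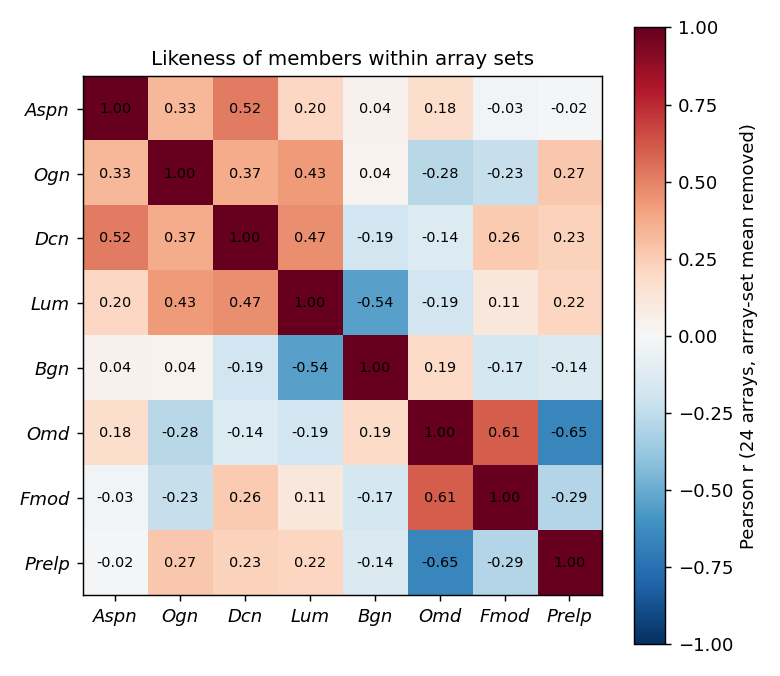
Pearson r between the 8 genes over 24 arrays after the mean of each of the 3 array sets was removed (colour scale from -1 to 1, each cell 1 pair). The highest value off the diagonal is 0.61 for Omd with Fmod and the lowest -0.65 for Omd with Prelp.

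The proteoglycans work with collagens, with the enzymes that build their sugar chains and with TGF-beta itself, and these lists were counted in the same fits. On KO 1-2 arrays all 10 fibrillar and fibril-associated collagen genes were lower than control, with a median of -1.21 (Col1a1 -1.24 ± 0.08, adjusted p = 0.00155), where 31.7% of all genes were lower. Of 26 genes for glycosaminoglycan chains 16 were lower and 1 higher, where 20.9% of all genes were higher; among them were Csgalnact1, which starts chondroitin chains (-1.93 ± 0.12, adjusted p = 0.00155), and Papss1, which makes the sulfate donor (-1.53 ± 0.08, 0.00150). Of 20 other proteoglycan core proteins 10 were lower and 4 higher, and of 11 enzymes of fibril processing and cross-linking 5 were lower and 2 higher, with -2.81 ± 0.28 for Lox, the collagen cross-linking oxidase (adjusted p = 0.00252). Of 8 TGF-beta ligands and receptors 5 were lower, including the type II receptor Tgfbr2 (-1.39 ± 0.09, adjusted p = 0.00161). With the 3′ excess in the fit 0 genes passed, but that fit had little power to pass any, so it does not bear on these calls.

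On KO 3-4 arrays few of these genes passed. No collagen of 10 did (median -0.13, 9 negative), with -0.38 ± 0.07 for Col5a1 (adjusted p = 0.0810). Of 26 genes for sugar chains 2 fell, where 1.29% of all genes did: Chst12, a chondroitin sulfotransferase (-0.62 ± 0.05, adjusted p = 0.0405), and Slc26a2, the sulfate transporter of chondrocytes (-0.64 ± 0.06, 0.0486). Of 20 other core proteins 1 fell, Hspg2, which codes for perlecan (-0.46 ± 0.05, adjusted p = 0.0486). These 3 calls were lost without KO number 3 (adjusted p = 0.375 each), without KO number 4 (0.356 each), with the 3′ excess in the fit (0.805 each) and without control number 1 (0.0580, 0.0538 and 0.0667). The fit with the 3′ excess had little power to pass any gene. With the numbers of the control distal mandible exchanged the adjusted p-values of Chst12, Slc26a2 and Hspg2 were 0.104, 0.149 and 0.110. Acan, coding for aggrecan, gave -1.59 ± 0.32 (adjusted p = 0.0917) and Tgfb1 -1.06 ± 0.13 (0.0527). Tgfb1 passed in 7 of its alternative fits but not in the main fit. With the numbers of the control distal mandible exchanged it did not pass either (adjusted p = 0.163), nor did Acan (0.122).

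Between the jaws, Col5a1, whose product nucleates collagen fibrils, was higher in the mandible than in the maxilla in KO (0.39 ± 0.06, adjusted p = 0.00116) and in control (0.50 ± 0.08, adjusted p = 0.0136). In control the call was lost without number 2 (0.42, adjusted p = 0.0559) and in KO without number 3 (0.36, adjusted p = 0.0684). Col1a2 was lower in the mandible in KO (-0.23 ± 0.05, adjusted p = 0.0188), on KO 3-4 arrays by -0.05 (adjusted p = 0.991). Of the genes for sugar chains in KO, Chst11 was higher (0.34 ± 0.07, adjusted p = 0.00749) and Papss2 lower (-1.66 ± 0.36, adjusted p = 0.0110) in the mandible. On KO 3-4 arrays alone these were 0.24 (adjusted p = 0.386) and -0.67 (0.848).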

How the data were processed

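Total RNA from 24 tissue samples was hybridised to 1 array each. The authors deposited log2 levels for each probe set, and the submitters' processing notes name RMA; its version and whether it was run once on all arrays are not given in the sources used here. Probe sets were named through the platform annotation: of 45101, 34945 carry 1 symbol, 932 several and 9160 none, and 64 control features were left out. Filter and probe set choice are as described in the report. Linear models were fitted to all 13837 genes with limma 3.58.1 (R 4.3.3; eBayes, no trend), and 2-sided p-values were adjusted by the Benjamini-Hochberg method, with 0.05 as the threshold. Genotype over all parts was fitted on means of the 4 parts per replicate number; single parts, jaws and ends were contrasts of 12 group means (3 array sets by 4 parts) over 24 arrays, which takes the parts of a number as independent. The fits were tested on simulated data.

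The members, lists and tests were chosen with earlier results of these data known. All 8 members are named, of each list at most 4 genes with the smallest p in a comparison, and the 3 genes most like each member by r within array sets; r without removal of set means is not given, since the sets form separate clusters. The number of arrays limits the precision. Alternatives are given in the closing section.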

Additional observations from a re-analysis of the deposited data

How the results depend on the processing

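Over both KO sets, the median difference of the 8 genes from control was -1.40; it was -1.10 with the mean of all probe sets, -2.53 with a replicate block (which leaves only numbers 1 and 2, shared by both genotypes), -0.48 with the 3′ excess as a covariate, and between -1.78 and -0.84 when 1 number was left out. For KO 1-2 the median of -2.53 was -2.97 with the stricter filter (which drops low members), -1.91 with the mean of all probe sets, -1.73 with the 3′ excess and between -2.74 and -2.28 with 1 number left out. With the 3′ excess, Lum (1.69), Omd (1.07) and Fmod (1.06) changed sign in KO 1-2 minus control and Dcn (-0.18) in KO 3-4 minus control; the cause was not tested. For KO 3-4 minus control 0 members passed, but 2 did with an eBayes trend, 2 with 3 groups in 1 fit, 2 with 12 group means and 0 to 2 with 1 number left out. With 1 number left out, Dcn ran from -0.00622 to 0.35 and Lum from -0.12 to 0.22 in that comparison. Left-out numbers gave 0 to 2 passing members in the proximal mandible, 0 to 1 in the distal mandible, 0 to 2 in the proximal maxilla and 0 to 1 in the distal maxilla. They gave 0 to 3 for the jaws in control, 1 (at both) for the ends of the control mandible, 0 to 1 for those of the KO maxilla and of the control maxilla, 0 to 1 for the jaw difference between genotypes and 0 to 2 for the end difference in the mandible. Ogn in the proximal maxilla ran from -0.56 to 0.072 with 1 number left out. By array set, the jaw difference of Aspn was -0.21 on KO 1-2 arrays, the end difference of Bgn in the mandible -0.021 on KO 3-4 arrays and that of Omd -0.19 on KO 1-2 arrays.

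Same-numbered parts did not deviate together throughout: in the control set 3 of 6 pairs of parts correlated above 0.1 and 3 below -0.1 (r from -0.68 to 0.58), in KO 1-2 likewise 3 and 3, and in KO 3-4 4 of 6 above 0.1. All negative pairs in control involve the distal mandible and all in KO 1-2 the proximal maxilla, so that exchanging the numbers in that part turns them positive; the labels were kept as given. With these numbers crossed, an alternative chosen after the data were seen, 0 members passed in KO 3-4 minus control over all parts, as with the numbers as given. The fits of single parts, jaws and ends do not use the numbers, so the exchange cannot change them. Genes passing in KO 3-4 minus control numbered 0 (216 as given) and in KO 1-2 minus control 5656 (7279 as given). Sox9 and Sox6 had adjusted p-values of 0.109 and 0.117 in KO 3-4 minus control with the numbers crossed. With 2 control numbers, leaving 1 out leaves a lone control that is assumed to vary like the others. Aspn, Omd and Prelp on KO 1-2 arrays lie at the level of the dimmest probes, which limits the size of their differences.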
